A study of Mus musculus with 6 samples.

Results

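Purinergic signalling was examined through 10 genes: the adenosine receptor genes Adora1 and Adora2a, the ATP-gated channel genes P2rx4 and P2rx7, the nucleotide receptor genes P2ry1 and P2ry14, the surface enzyme genes Entpd1 and Nt5e, the adenosine transporter gene Slc29a1 and the adenosine kinase gene Adk. They were chosen by symbol, and all 10 were found among the 32285 genes measured. Cells release ATP, and enzymes on their surface cut it stepwise to adenosine, so that 1 released molecule can act first on P2 receptors and then on adenosine receptors. Transporters carry adenosine back into cells, where adenosine kinase turns it into AMP. In the brainstem, ATP and adenosine are known for their parts in the ventilatory response to low oxygen, and in the brain at large extracellular nucleotides guide microglia.

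Nuclei of the pons and medulla of wild-type C57BL6/J male mice were sequenced as single-nucleus RNA libraries with a droplet method that reads the 3' ends of transcripts. Of the 6 libraries, 3 came from mice under chronic intermittent hypoxia (CIH) and 3 from mice kept in room air (normoxia). All mice were weaned at postnatal day 21 and kept in their condition from day 22 to day 43. CIH mice were exposed for 21 days to 80 cycles a day over 8 hours, each with 60 seconds of nitrogen that took chamber oxygen to 4.5 to 5%, followed by up to 5 minutes of air that restored 21%. The question of the design was which cell classes and genes differ after CIH. How many mice went into a library is not in the labels, so p-values measure the spread between libraries, which may be technical.

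The libraries held 26733243 to 46754345 unique molecular identifiers (UMIs, each standing for 1 captured RNA molecule), and 40139 of 43836 barcodes were kept, those with 500 or more genes and no more than 5% of UMIs from mitochondrial genes. Of the barcode sequences, 1760 occurred in more than 1 library. CIH library 3 differed from the rest. The median share of mitochondrial UMIs in its nuclei was 0.366%, and 0.0624 to 0.0955% in the other 5 libraries; it held 10643 kept nuclei, and astrocytes made up 4.02% of them, against 1.02 to 1.41% elsewhere. Granule neurons, a type best known from the cerebellum, made up 18.5, 21.0 and 3.49% of CIH library nuclei, against 6.96, 7.23 and 3.50% in normoxia. None of the 10 genes was a marker. A nucleus was put in a class when enough of the markers of that class, and a smaller share of those of any other, were detected in it. The exception was perivascular macrophages, for which no lead over microglia was asked. This placed 33571 nuclei, and 9 classes with at least 20 nuclei in every library were tested: 12503 oligodendrocytes, 418 oligodendrocyte precursors, 777 astrocytes, 1430 microglia, 814 endothelial cells, 3243 granule neurons, 1829 excitatory neurons, 3846 inhibitory neurons and 8096 neurons without a transmitter call.

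Total counts differed widely between the genes, from 81 UMIs for Adora2a and 325 for P2ry1 to 29197 for P2ry14 and 38137 for Adk, with Slc29a1 at 1628, Nt5e at 3436, P2rx7 at 4323, Entpd1 at 4609, Adora1 at 6715 and P2rx4 at 7380. Levels below are CPM, the UMIs of a gene per 1000000 UMIs of the class in a library. They are compared within a gene only, since introns and gene length also set how many UMIs a gene can give in nuclei.

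The genes lie on 8 chromosomes (GENCODE mouse release M21, mm10). Adora1 (ENSMUSG00000042429) lies on chromosome 1 from 134199223 to 134235431, minus strand, and Adora2a (ENSMUSG00000020178) on chromosome 10 from 75316877 to 75334784, plus strand. P2rx7 (ENSMUSG00000029468, chromosome 5 from 122643911 to 122691432) and P2rx4 (ENSMUSG00000029470, from 122707544 to 122729738) are neighbours on the plus strand, with 16111 bases between them. P2ry14 (ENSMUSG00000036381, chromosome 3 from 59113855 to 59153618) is on the minus strand of the chromosome that also carries P2ry1 (ENSMUSG00000027765, from 61002795 to 61008982, plus strand). Entpd1 (ENSMUSG00000048120) lies on chromosome 19 from 40612366 to 40741602, plus strand, Nt5e (ENSMUSG00000032420) on chromosome 9 from 88327197 to 88372092, plus strand, Slc29a1 (ENSMUSG00000023942) on chromosome 17 from 45585200 to 45599606, minus strand, and Adk (ENSMUSG00000039197) on chromosome 14 from 21052574 to 21448569, plus strand. Annotated genes on the opposite strand overlap 4 of the members: Mybph covers 2010 bases of Adora1, Gm37035 covers 992 bases of P2ry1, Gm17080 covers 2258 bases of Slc29a1, and Med12l covers the whole of P2ry14.

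Entpd1, P2rx7, P2rx4 and Slc29a1 had their highest mean level among the 9 classes in microglia. The promoter windows of Entpd1, P2rx7 and P2rx4 are shown together, and that of Slc29a1 is not shown (GRCm38.p6, 300 bases, of which 250 precede the RefSeq start). RefSeq starts can differ from the GENCODE ones given above. The window of Nt5e, chromosome 9 from 88327359 to 88327658, lies inside its GENCODE span. Capitals mark GAGGAA, the PU box known as a binding sequence of the myeloid factor PU.1, searched on both strands. The windows are chr19:40612116-40612415 for Entpd1, chr5:122643677-122643976 for P2rx7 and chr5:122707294-122707593 for P2rx4, each on the plus strand.
Entpd1: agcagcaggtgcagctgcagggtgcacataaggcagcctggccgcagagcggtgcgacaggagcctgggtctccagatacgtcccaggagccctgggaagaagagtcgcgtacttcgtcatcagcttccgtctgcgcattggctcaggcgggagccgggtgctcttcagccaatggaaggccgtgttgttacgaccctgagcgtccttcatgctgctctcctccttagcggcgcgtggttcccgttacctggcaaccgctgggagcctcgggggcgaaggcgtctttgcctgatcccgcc
P2rx7: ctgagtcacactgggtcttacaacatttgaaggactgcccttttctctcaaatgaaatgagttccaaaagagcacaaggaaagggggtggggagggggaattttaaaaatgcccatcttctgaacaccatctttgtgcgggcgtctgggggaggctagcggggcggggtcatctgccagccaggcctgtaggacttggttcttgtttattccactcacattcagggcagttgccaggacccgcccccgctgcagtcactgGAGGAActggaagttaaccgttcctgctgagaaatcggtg
P2rx4: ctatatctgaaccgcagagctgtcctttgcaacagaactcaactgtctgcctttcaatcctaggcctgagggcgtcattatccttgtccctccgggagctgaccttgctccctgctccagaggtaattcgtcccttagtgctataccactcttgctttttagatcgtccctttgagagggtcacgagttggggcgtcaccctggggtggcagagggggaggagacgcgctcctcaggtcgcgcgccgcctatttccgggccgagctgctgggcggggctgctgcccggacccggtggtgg
P2rx7 had 1 match, which starts at base 261 of the window, and the other windows shown had 0. The window of Slc29a1 had 1 match, which starts at base 77. Of 27025 such windows, 28.3% held a match. Windows were found for 9 of the 10 genes, and 3 of the 9 held the PU box (P2rx7, P2ry14 and Slc29a1). The core of the hypoxia response element (ACGTG or GCGTG, either strand) was in 5 of the 9, those of Adora1, P2ry1, P2ry14, Entpd1 and Nt5e, and in 43.8% of all windows. A match is a stretch of letters and not a shown binding site.

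**Figure D1:**
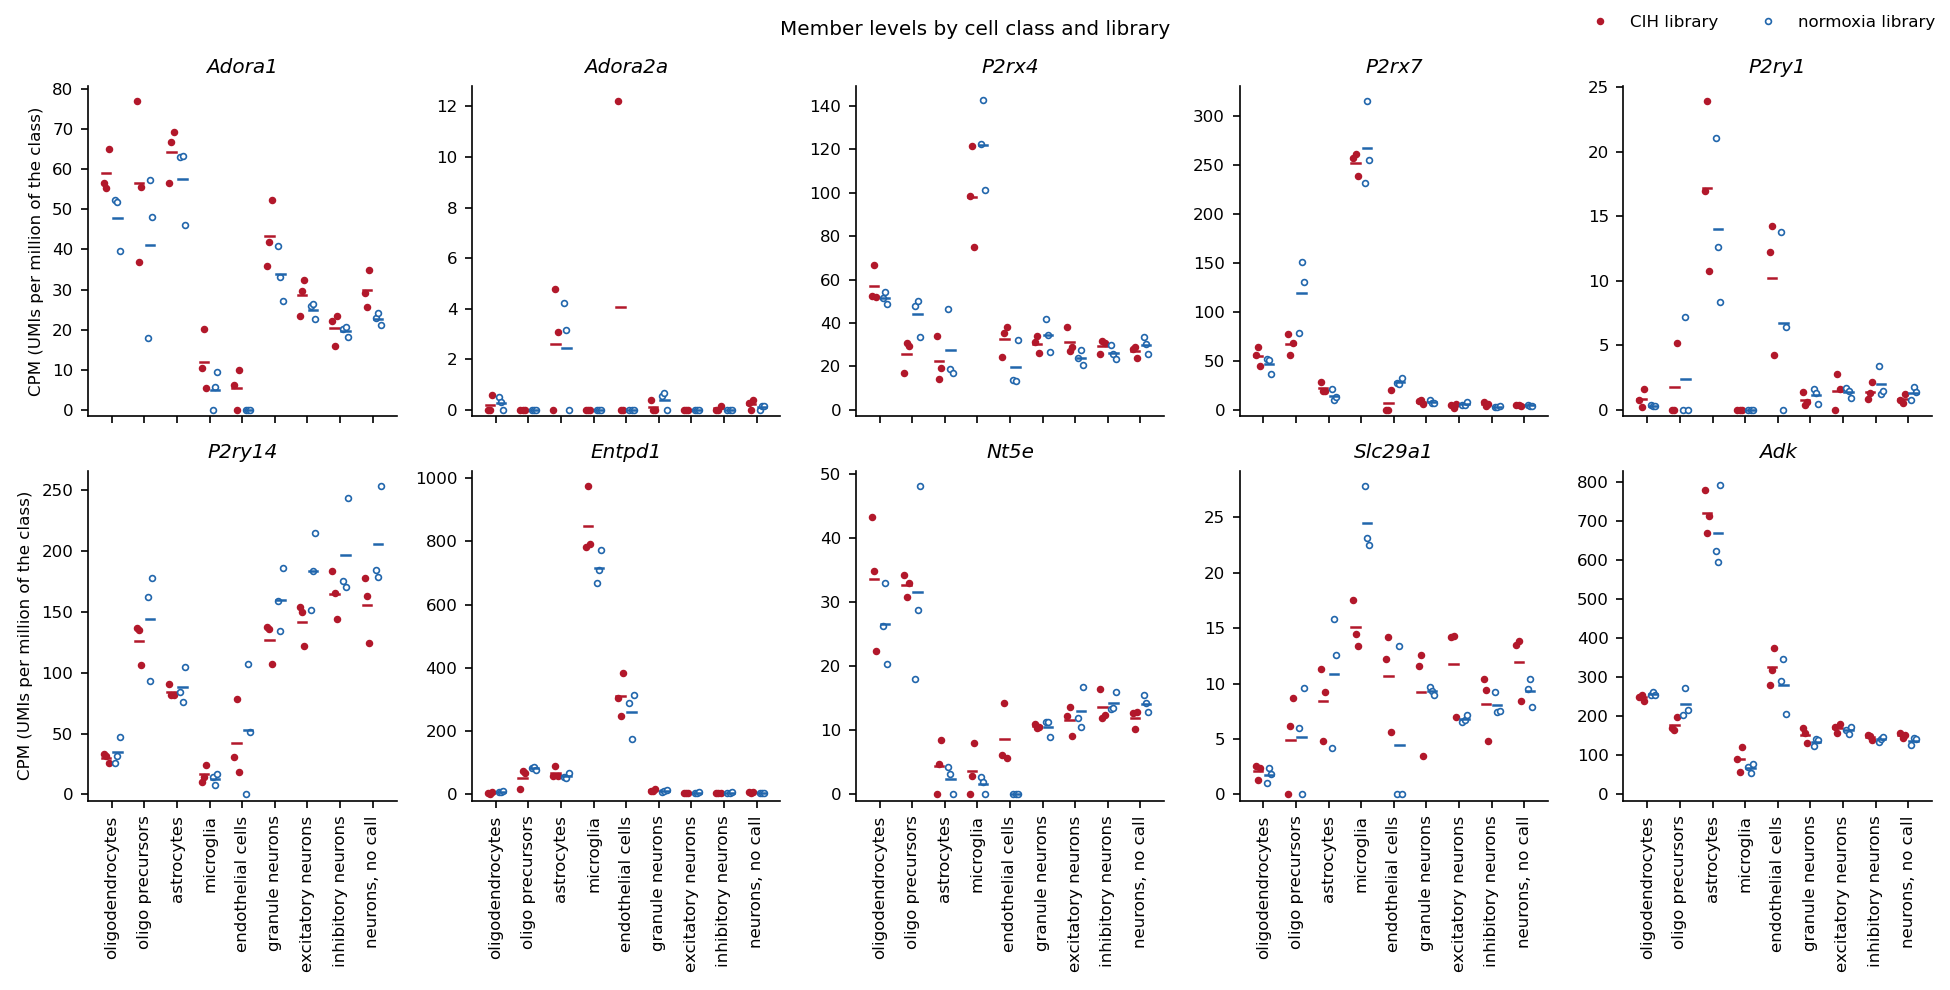
Level of each gene (CPM, linear axes that differ between panels) in the 9 tested classes. Filled points are the 3 CIH libraries, open points the 3 normoxia libraries and bars their means; Entpd1, P2rx7, P2rx4 and Slc29a1 stand highest in microglia, Adk, Adora1 and P2ry1 in astrocytes, and P2ry14 in neurons.

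Class differences were tested with edgeR's quasi-likelihood test on UMIs summed per library and class, each class against the mean of the other 8, with a term for library and Benjamini-Hochberg adjustment over 15601 genes. Adora2a was too sparse to enter, and P2ry1 had 0 UMIs in microglia in every library, so that its fitted fold changes depend on the prior count and are not given. The other 8 genes gave 52 calls at adjusted p under 0.05, 27 higher and 25 lower. In microglia 4 of 8 were higher (25.8% of all genes tested) and 4 lower (30.8%), and in oligodendrocytes 5 were higher (37.5% of all genes) and 3 lower (27.9%). Oligodendrocyte precursors had 5 higher (13.9% of all genes) and 0 lower (11.2%), astrocytes 3 higher (21.2%) and 1 lower (21.5%), and endothelial cells 2 higher (21%) and 2 lower (26.6%). Among neurons, granule neurons had 2 higher (31.7%) and 3 lower (17.5%), excitatory neurons 1 higher (35.7%) and 4 lower (27%), inhibitory neurons 2 higher (37.4%) and 4 lower (27.2%), and neurons without a transmitter call 3 higher (36.5%) and 4 lower (23.2%). A large part of all genes differed between these classes, and the members' counts are read only against those shares.

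**Figure D2:**
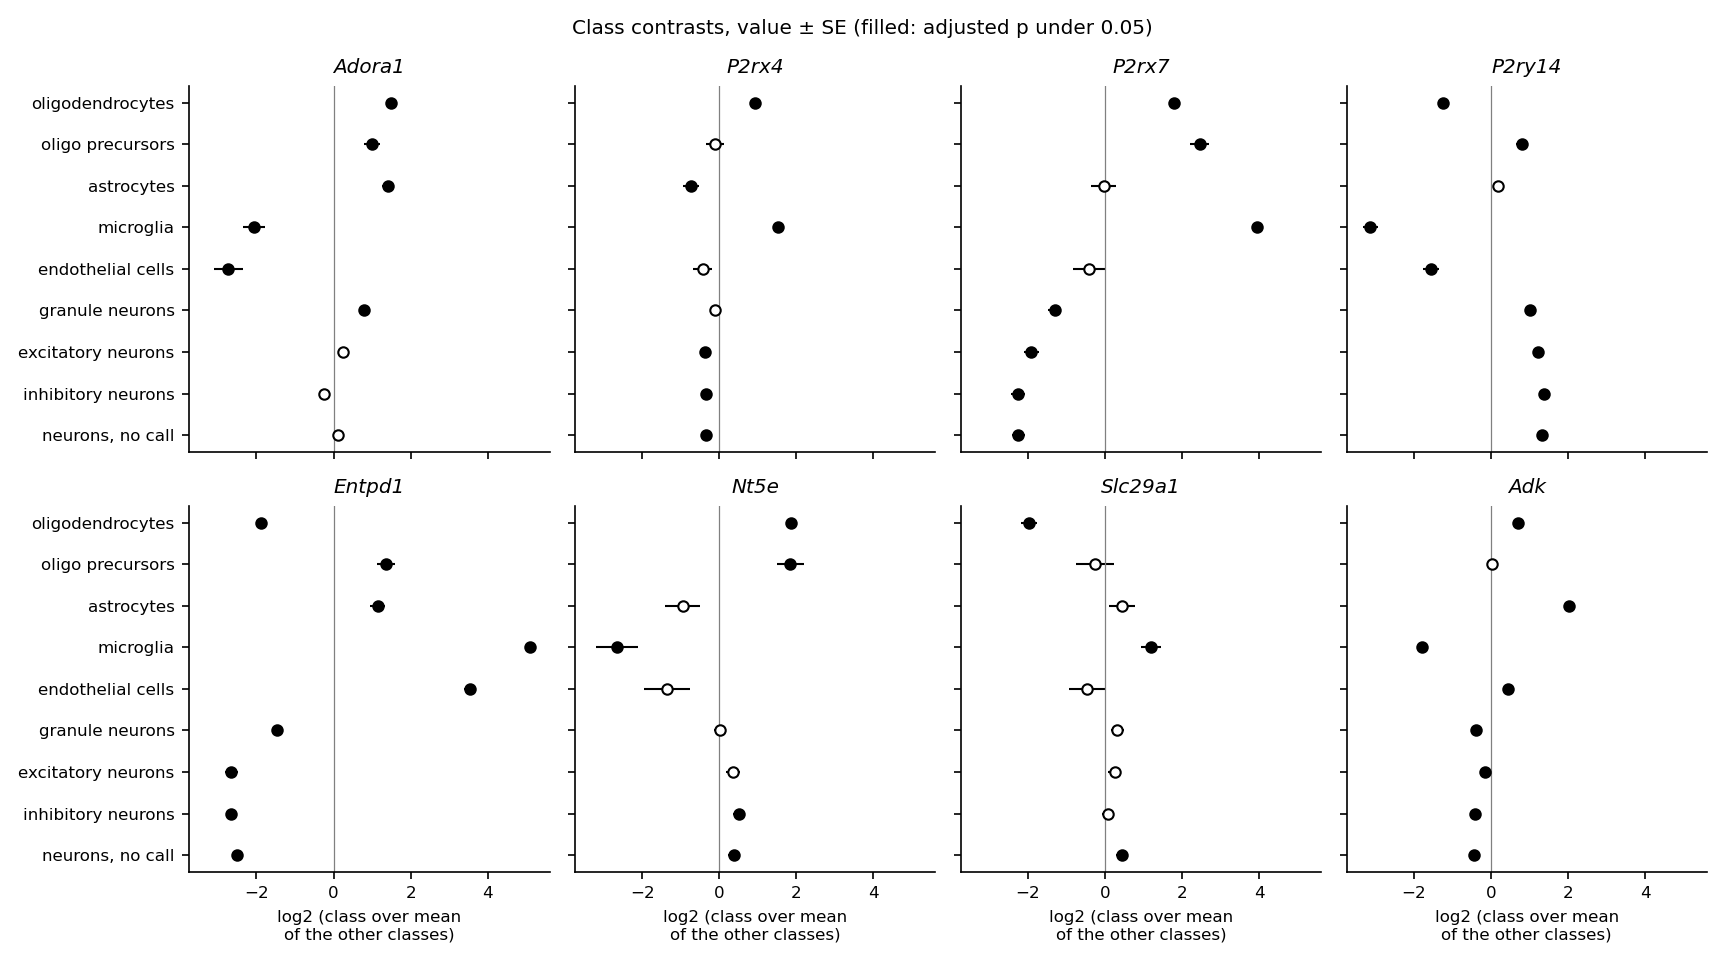
Log2 of each class over the mean of the other 8 classes for the 8 genes tested, with the standard error; filled points passed at adjusted p under 0.05. Entpd1 spans the widest range, from 5.10 in microglia to -2.65 in excitatory and in inhibitory neurons.

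Adora1, the inhibitory adenosine receptor that restrains transmitter release, was detected in glia as well as neurons. In astrocytes it had 56.6, 66.9 and 69.3 CPM in the CIH libraries, against 63.2, 63.3 and 46.1 CPM in the normoxia libraries. The groups overlapped there. In oligodendrocytes it had 56.7, 55.4 and 65.1 CPM in CIH, against 52.4, 51.9 and 39.6 CPM in normoxia. Astrocytes (60.9 ± 8.43 CPM, mean ± SD over 6 libraries), oligodendrocytes (53.5 ± 8.31) and oligodendrocyte precursors (48.8 ± 20.0) did not separate beyond their spread. Granule neurons followed at 38.6 ± 8.59 CPM and lay above excitatory neurons (26.8 ± 3.73 CPM) in 6 of 6 libraries. Against the mean of the other classes, Adora1 was higher in oligodendrocytes (log2 1.49, SE 0.082), astrocytes (1.41, SE 0.162), oligodendrocyte precursors (1.00, SE 0.219) and granule neurons (0.78, SE 0.103), with adjusted p of at most 0.000221 in edgeR. It was lowest in the immune and vessel classes: microglia held 20 UMIs in 1430 nuclei and endothelial cells 8 UMIs in 814 nuclei.

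Adora2a, the stimulatory adenosine receptor best known from striatal neurons and vessels, was almost undetected. Of its 81 UMIs, 18 lay in the 175 mural cells, the pericytes and smooth muscle cells of vessels, which make up 0.436% of kept nuclei. The mural libraries held 1, 3 and 12 of these UMIs in CIH and 1, 1 and 0 in normoxia, a class level of 67.8 CPM (95% Poisson interval 40.2 to 107 CPM). Excitatory neurons, microglia and oligodendrocyte precursors held 0 UMIs, which allows up to 0.148, 1.24 and 2.19 CPM. Noradrenergic neurons held 6 UMIs in 41 nuclei (10.2 CPM, interval 3.75 to 22.3), of which 5 came from 1 normoxia library. Fibroblasts held 5 UMIs in 150 nuclei. Intervals and limits here cover counting error only, and the class of 117 mural nuclei in CIH library 3 outweighs the 9 to 14 of the other libraries. Over all nuclei Adora2a had a log2 fold change of CIH over normoxia of 1.03 (SE 0.679, edgeR adjusted p = 0.583), or 0.18 without CIH library 3, with overlapping groups.

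P2rx7, the ATP-gated channel that opens at high ATP and drives inflammasome activation in macrophages, was concentrated in immune and oligodendrocyte-lineage nuclei. Microglia had 256, 260.5 and 238 CPM in the CIH libraries, against 231, 314 and 255 CPM in the normoxia libraries, above every other tested class in 6 of 6 libraries. Oligodendrocyte precursors had 76.9, 55.4 and 67.8 CPM in CIH, against 78.0, 151 and 130 CPM in normoxia. Oligodendrocytes, at 50.6 ± 9.27 CPM (SD, n = 6 libraries), held 44.2% of the gene's UMIs. The log2 differences from the other classes were 3.93 in microglia (SE 0.132, edgeR adjusted p = 1.46e-36), 2.45 in precursors (SE 0.244) and 1.80 in oligodendrocytes (SE 0.099). In the 4 neuron classes it was -1.31 to -2.26, at mean levels of 4.69 to 7.95 CPM. Pooled over libraries, these levels were 1.7 to 3.2% of the microglial one.

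The 65 perivascular macrophages, immune cells along vessels that were too few to test, had the highest P2rx7 level of any class. Their level was 1905, 2251 and 1318 CPM in the CIH libraries (26, 36 and 33 UMIs in 7, 8 and 16 nuclei). In the normoxia libraries it was 1080, 832 and 900 CPM (12, 10 and 21 UMIs in 9, 6 and 19 nuclei). Every library lay above its own microglia. Every CIH library lay above every normoxia library, on few nuclei, and this difference was not tested. The share of all genes that did so in this class was not computed. Of these nuclei, 60% lay near the gate, with only the minimum of 3 markers or a narrow lead over a class other than microglia. No lead over microglia was asked of them. The microglial gene P2ry12 stood at 445 CPM in them, against 963 CPM in microglia (pooled over libraries). Over the class, 39 of 65 nuclei had a P2rx7 UMI (60.0%, 95% exact binomial interval 47.1 to 72.0). Thinning to 1000 UMIs used only nuclei with at least that many, and gave 52.1% for the 51 such nuclei of this class. It kept 1127 of 1430 microglia, 397 of 418 oligodendrocyte precursors, 12040 of 12503 oligodendrocytes and 3842 of 3846 inhibitory neurons. The same thinning gave 22.4% in microglia, 9.85% in oligodendrocyte precursors, 4.72% in oligodendrocytes and 0.408% in inhibitory neurons, whose unthinned shares were 31.0, 23.9, 12.6 and 3.30% at median depths of 1412, 2716, 2527 and 7655 UMIs.

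P2rx4, an ATP-gated channel that in microglia is known from nerve injury, was present in every class at closer levels. Microglia had 98.3, 122 and 74.9 CPM in the CIH libraries, against 122, 143 and 101 CPM in the normoxia libraries. Oligodendrocytes, the next class, averaged 54.3 ± 6.33 CPM (SD, n = 6 libraries), below microglia in 6 of 6 libraries. The other 7 tested classes averaged 24.9 to 34.9 CPM. The 65 perivascular macrophages, too few to test, held 19 UMIs, which is 0.257% of the gene's UMIs in 0.162% of kept nuclei. Microglia held 3.66% of them in 3.56% of kept nuclei. The log2 difference was 1.53 in microglia (SE 0.126, edgeR adjusted p = 5.63e-17) and 0.92 in oligodendrocytes (SE 0.074). It was -0.74 in astrocytes (SE 0.209, adjusted p = 0.00264), where only 55 UMIs were counted, and the adjusted p was 0.0713 without CIH library 3, which held 25 of them.

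P2ry1, an ADP receptor that raises calcium in astrocytes, gave 325 UMIs in all. Astrocytes had 17, 23.9 and 10.8 CPM in the CIH libraries, against 21.1, 12.7 and 8.39 CPM in the normoxia libraries, on 33 UMIs. Every library was above its own endothelial cells, the next class at 8.47 ± 5.82 CPM (SD, n = 6 libraries). The 4 neuron classes and oligodendrocytes averaged 0.584 to 1.71 CPM. Microglia held 0 UMIs, which allows up to 1.24 CPM.

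P2ry14, the receptor for UDP-glucose and related sugar nucleotides, had its highest tested levels in neurons. Inhibitory neurons had 184, 166 and 144 CPM in the CIH libraries, against 175, 171 and 244 CPM in the normoxia libraries. Neurons without a transmitter call (180 ± 41.8 CPM, SD, n = 6 libraries), excitatory neurons (163 ± 32.3) and granule neurons (143 ± 27) overlapped with them and with oligodendrocyte precursors (135 ± 32.1). Microglia averaged 14.6 ± 5.64 CPM. The log2 differences were 1.01 to 1.37 in the 4 neuron classes, 0.80 in precursors, -1.23 in oligodendrocytes, -1.55 in endothelial cells and -3.13 in microglia, all with adjusted p under 0.05 in edgeR. Among classes too small to test, the 175 mural cells reached 524 CPM on 139 UMIs (95% Poisson interval 440 to 618 CPM), 91 of them from CIH library 3. In mural cells 49.7% of nuclei had a UMI. Thinned to 1000 UMIs, 39.6% of the 141 mural nuclei with at least that many had a UMI, against 17.3% of such inhibitory neurons.

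The neuronal P2ry14 level carries a limit. The gene lies inside Med12l, a Mediator subunit gene on the opposite strand (chromosome 3 from 59005825 to 59318682), as do Gpr171, P2ry13 and P2ry12. Whether counting used strand is not given in the sources used here, and reads of P2ry14 and of Med12l introns could then not be told apart. P2ry14 gave 0.568 to 0.748 UMIs per Med12l UMI in the 4 neuron classes, 0.601 in precursors, 0.540 in oligodendrocytes and 0.444 in astrocytes. P2ry12, the microglial ADP receptor gene in the same host, gave 0.201 to 0.210 per Med12l UMI in the neuron classes and 2.65 in microglia. P2ry14 was at 0.040 per Med12l UMI in microglia, at 1.22 in endothelial cells on 45 P2ry14 UMIs, and at 2.78 in mural cells. The part of Med12l RNA in the neuronal values was not tested.

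**Figure D3:**
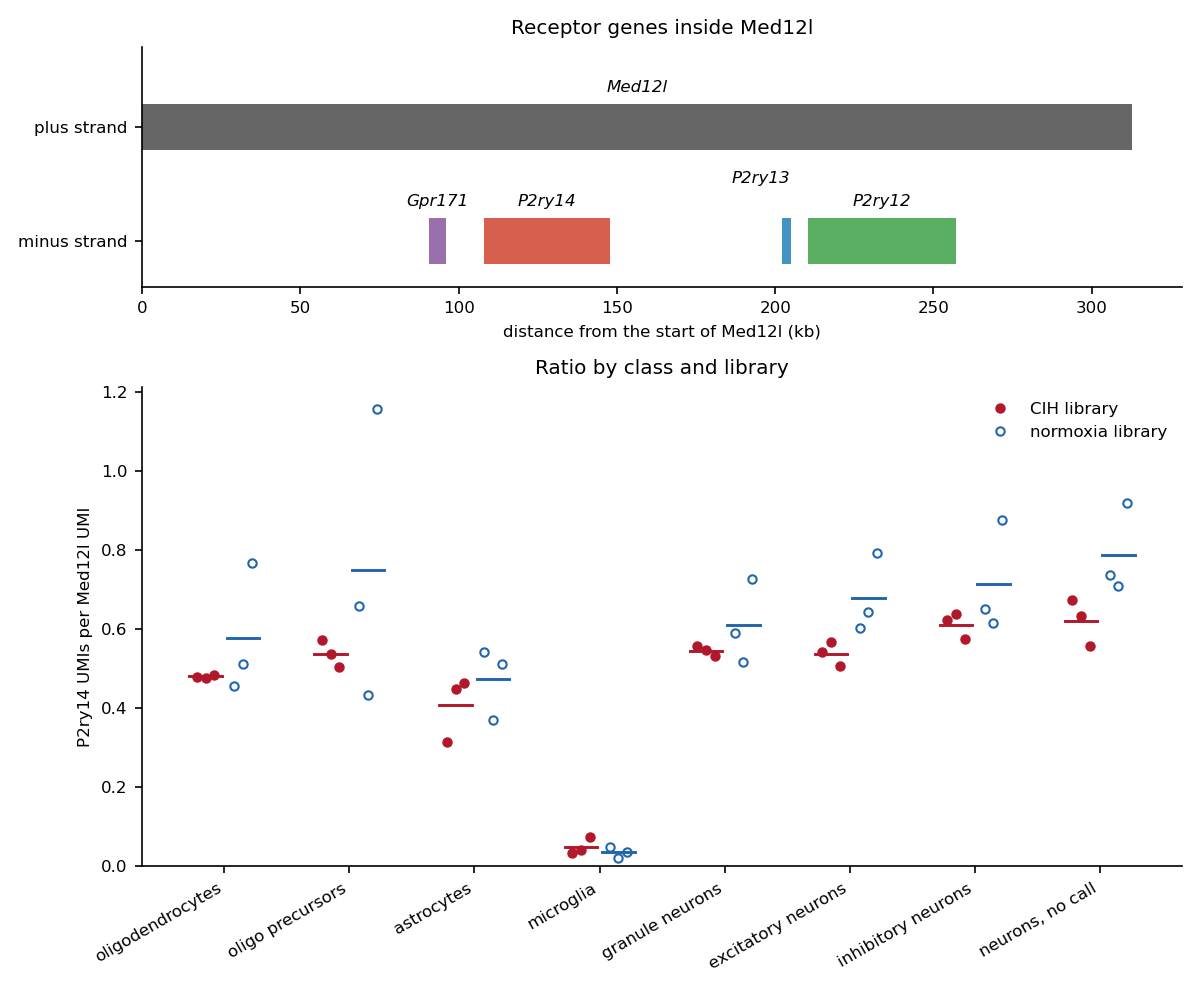
Top, Med12l, Gpr171, P2ry14, P2ry13 and P2ry12 drawn to scale by distance from the start of Med12l (kb) and by strand. Bottom, P2ry14 UMIs per Med12l UMI in each library for the tested classes other than endothelial cells (filled, CIH; open, normoxia; bars, means); microglia lie near 0 and normoxia library 3 is the highest normoxia library in 6 of the 8 classes.

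Entpd1 (CD39), the surface enzyme that cuts ATP and ADP to AMP, marked microglia and endothelial cells. Microglia had 783, 975 and 792 CPM in the CIH libraries, against 668, 710 and 774 CPM in the normoxia libraries. Endothelial cells had 305, 249 and 383 CPM in CIH, against 290, 174 and 314 CPM in normoxia. The 2 classes did not overlap, and both stood above every other tested class in 6 of 6 libraries. The log2 differences were 5.10 in microglia (SE 0.086, edgeR adjusted p = 2.64e-53) and 3.53 in endothelial cells (SE 0.144, adjusted p = 1.29e-31). Precursors (67.6 ± 25.7 CPM, SD, n = 6 libraries) and astrocytes (62.8 ± 14.8 CPM) were also higher, by 1.37 and 1.15. Perivascular macrophages held 52 UMIs (514 CPM, 95% Poisson interval 384 to 674), whereas mural cells held 4 and fibroblasts 1.

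Entpd1 was set beside the microglial markers in the classes that should lack them. The 11 microglial markers summed to 11548 CPM in microglia and to 0.650 to 1.14% of that in the neuron classes, and Entpd1 lay at 0.661 to 1.35% of its microglial level there. Oligodendrocytes held the markers at 1.33% and Entpd1 at 0.996%. In these classes Entpd1 was at about the same share of its microglial level as the markers. Whether its UMIs there came from those cells was not tested. Its log2 values in these classes were -1.46 to -2.65. In endothelial cells the markers were at 1.75% and Entpd1 at 43.0%. In precursors and astrocytes the markers were at 0.911 and 0.832% and Entpd1 at 8.93 and 7.69%.

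Nt5e (CD73), the enzyme of the next step that makes adenosine from AMP, had a pattern apart from that of Entpd1. Among the 9 tested classes it was highest in the oligodendrocyte lineage, with 34.2, 30.8 and 33.0 CPM in precursors of the CIH libraries and 18.0, 28.7 and 48.1 CPM in those of the normoxia libraries. Oligodendrocytes had 43.3, 34.9 and 22.4 CPM in CIH, against 26.2, 33.0 and 20.4 CPM in normoxia. The 4 neuron classes averaged 10.6 to 13.9 CPM. Microglia, which led for Entpd1, held 6 Nt5e UMIs in 1430 nuclei. The log2 differences were 1.86 in oligodendrocytes (SE 0.130, edgeR adjusted p = 2.9e-20), 1.84 in precursors (SE 0.349) and -2.65 in microglia (SE 0.543). Astrocytes held 14 UMIs and endothelial cells 7, too few to separate them.

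Slc29a1 (ENT1), which lets adenosine pass in either direction across the membrane, was sparse. Microglia had 17.6, 14.5 and 13.4 CPM in the CIH libraries, against 27.8, 23.1 and 22.5 CPM in the normoxia libraries, on 49 UMIs. Every CIH library lay below every normoxia library there, but the counts were under the filter of the CIH fit and the difference was not tested. Among the genes that passed that filter in microglia, 4.66% were wholly lower in CIH. Astrocytes, endothelial cells and the 4 neuron classes averaged 7.57 to 10.6 CPM. Oligodendrocytes, at 1.91 ± 0.639 CPM (SD, n = 6 libraries), were the lowest class, with 77 UMIs in 12503 nuclei. The log2 difference was 1.2 in microglia (SE 0.258, edgeR adjusted p = 5.57e-05), 0.43 in neurons without a transmitter call (SE 0.144) and -1.97 in oligodendrocytes (SE 0.205, adjusted p = 3.4e-13).

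Adk, the kinase that clears intracellular adenosine and is known as the main sink of adenosine in adult astrocytes, was found in every class. Astrocytes had 781, 669 and 712 CPM in the CIH libraries, against 623, 595 and 793 CPM in the normoxia libraries, above every other tested class in 6 of 6 libraries. Endothelial cells (303 ± 59.7 CPM, SD, n = 6 libraries), oligodendrocytes (253 ± 7.54) and precursors (205 ± 38.6) came next. The 4 neuron classes averaged 144 to 167 CPM and microglia 79.0 ± 24.2 CPM. The log2 difference was 2.02 in astrocytes (SE 0.072, edgeR adjusted p = 1.09e-34), 0.69 in oligodendrocytes, 0.44 in endothelial cells and -1.79 in microglia. The endothelial call ended without CIH library 3 (log2 0.27, adjusted p = 0.0835), and the excitatory neuron call (log2 -0.14, adjusted p = 0.0426) ended without any 1 of 5 libraries. Thinned to 1000 UMIs, 45.0% of astrocytes with at least that many had an Adk UMI, against 20.6% of such oligodendrocytes and 6.49% of such microglia.

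Across the 9 classes, the genes whose mean log2 CPM followed a member most closely were sought among 9997 genes. For P2ry14 they were Irak1bp1, Chrna7 and Lonrf2 (Pearson r 0.990, 0.990 and 0.987), and for Entpd1 Smad3, Lrp5 and Strn3 (0.994, 0.991 and 0.987). For P2rx4 they included Agps and Nhlrc3 (0.985 and 0.977), and for P2rx7 Anapc16, Fam172a and Kmt5c (0.967, 0.963 and 0.962). For Adora1 they were Cdh10, Arnt2 and Pdgfc (0.975, 0.973 and 0.965), and for Nt5e Arhgap33, Kif3a and Capn5 (0.987, 0.981 and 0.980). For Slc29a1 they were Ctps2, Idh2 and Camk2d (0.970, 0.966 and 0.95), and for Adk Utp14b, Trps1 and Sned1 (0.965, 0.961 and 0.946). Each r is a description over 9 points that share libraries and depth, picked as the highest of 9997. Between members the highest r were those among Adora2a, P2ry1 and Adk (0.867 to 0.895), which rest on the few UMIs of Adora2a and P2ry1. The neighbours P2rx4 and P2rx7 came next at 0.810, and the lowest r was -0.755, for P2ry14 and Entpd1.

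The other genes of the pathway showed where the members' partners lay. Of 43 further purinergic genes, 29 were abundant enough for the class test, and those of smallest p are named per class, all with adjusted p under 0.05 in edgeR. Microglia had 8 higher (25.8% of all genes) and 9 lower (30.8%); the higher ones included the nucleotide receptor genes P2ry6 (log2 7.67), P2ry13 (5.44) and P2ry12 (4.53) and the lysosomal nucleoside transporter gene Slc29a3 (3.73). Oligodendrocytes had 7 higher (37.5%) and 10 lower (27.9%), and the higher ones included Enpp3 (4.03), Enpp2 (3.87) and Enpp1 (3.33), phosphodiesterases of the nucleotide pyrophosphatase family, and the intracellular diphosphatase gene Entpd5 (1.42). Oligodendrocyte precursors had 3 higher (13.9%) and 5 lower (11.2%), with the adenosine receptor gene Adora2b (3.37), the AMP deaminase gene Ampd3 (2.49) and Enpp2 (1.00) higher and the pannexin gene Panx2 (-2.75) lower. Adora2b and Panx2 rest on few UMIs there, at 7.27 ± 7.42 and 1.09 ± 1.95 CPM (SD over the libraries), against 151 ± 55.6 CPM for Ampd3. Astrocytes had 12 higher (21.2%) and 4 lower (21.5%), with the connexin gene Gjb6 (6.55), the ATP-preferring surface enzyme gene Entpd2 (5.25), the purine nucleoside phosphorylase gene Pnp (2.43) and Ahcyl1 (2.12) among the higher.

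Endothelial cells had 5 higher (21% of all genes) and 4 lower (26.6%), with the alkaline phosphatase gene Alpl (4.59) and Dpp4 (3.92), whose product binds adenosine deaminase in humans, higher and P2ry12 (-2.83) and Entpd6 (-2.25) lower. The lower genes rest on few UMIs there, at 7.72 ± 10.2 CPM for P2ry12 and 9.71 ± 8.96 CPM for Entpd6 (SD over the libraries). Granule neurons had 8 higher (31.7%) and 5 lower (17.5%), with the transporter gene Slc29a4 (2.55), Panx2 (1.90) and Entpd3 (1.49) higher and Pnp (-1.22) lower. Excitatory neurons had 11 higher (35.7%) and 7 lower (27%), with Entpd3 (2.75), which encodes a surface ATP- and ADP-cutting enzyme, and Panx2 (1.47) higher and Pnp (-1.72) and Enpp2 (-0.98) lower. Inhibitory neurons had 12 higher (37.4%) and 8 lower (27.2%), and neurons without a transmitter call 11 higher (36.5%) and 5 lower (23.2%). In those 2 classes Entpd3 (2.69 and 2.70), Panx2 (1.63 and 1.61) and Entpd6 (0.89 and 0.76) were higher and Pnp (-1.84 and -1.39) lower.

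CIH and normoxia were compared in the same sums, with 1 edgeR fit per class. No member passed. Of 54 member and class pairs tested, 0 had an adjusted p under 0.05, 6 had an unadjusted p under 0.05 in edgeR (7.49% of all gene and class pairs), and DESeq2 called 0. The share of all genes called was 0.112% in neurons without a transmitter call, 0.0067% in inhibitory neurons and 0% in the other 7 classes. Log2 fold changes of CIH over normoxia ran from -0.84 to 0.87, with a median of 0.083, against 0.0047 over all genes tested. The groups overlapped in 45 pairs, CIH was wholly higher in 5 and wholly lower in 4. Among all genes tested, wholly higher and wholly lower ones made up 6.07 and 5.98% in oligodendrocytes, 4.98 and 4.57% in oligodendrocyte precursors, 5.32 and 5.05% in astrocytes, 5.49 and 4.66% in microglia and 7.4 and 6.9% in endothelial cells. They made up 6.52 and 7.72% in granule neurons, 7.76 and 5.21% in excitatory neurons, 7.37 and 5% in inhibitory neurons, and 9.21 and 6.59% in neurons without a transmitter call. Over all nuclei summed, 0 of 10 members were called (0.0101% of all genes), 1 had an unadjusted p under 0.05 (11% of all genes), and DESeq2 called 0; 2 members were wholly higher (9.86% of all genes) and 0 wholly lower (9.19%). In the sum over all nuclei taken alone, fewer cells of a type and less RNA per cell cannot be told apart. The fits within classes are given beside it.

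**Figure D4:**
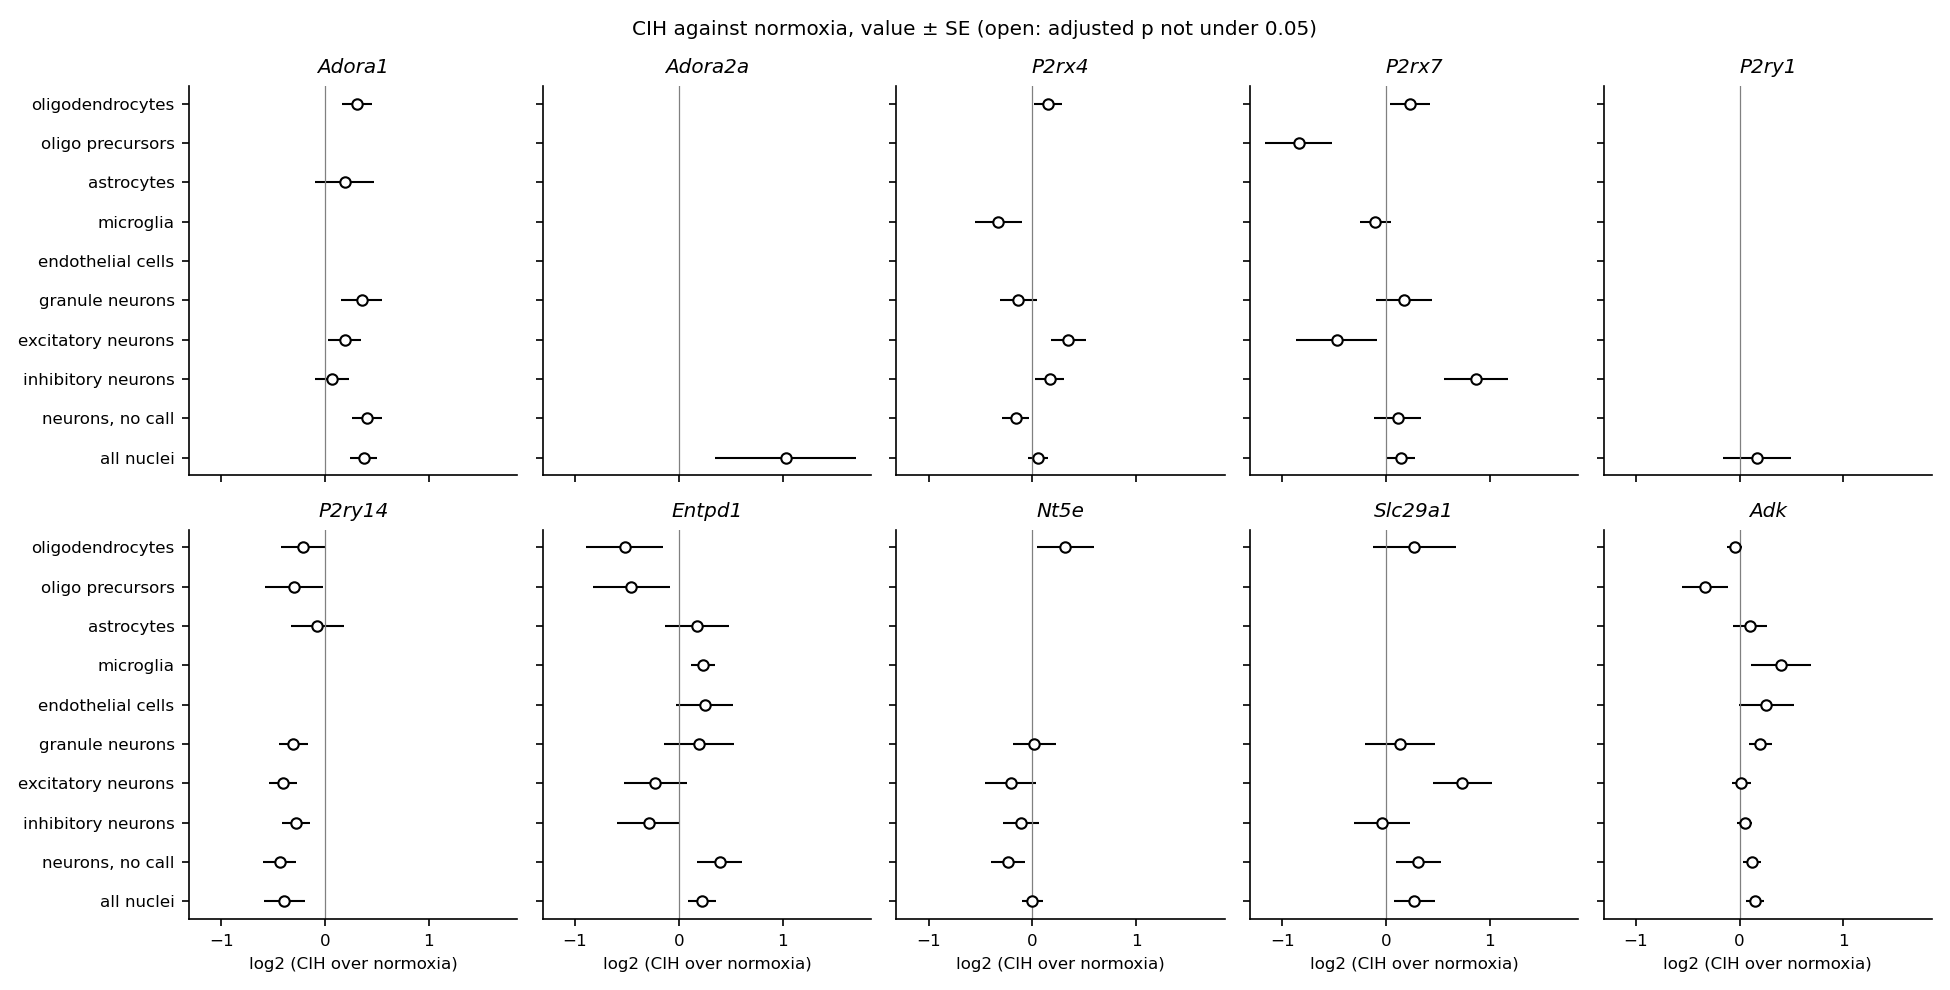
Log2 of CIH over normoxia with its standard error for each gene in each class where it passed the filter on low counts, and in all nuclei; open points did not pass at adjusted p under 0.05. Every point is open. P2ry14 lies below 0 in all 7 classes where it was tested, but above 0 in oligodendrocytes (0.045) and astrocytes (0.078) when normoxia library 3 is left out, which is not drawn.

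P2ry14 was lower in CIH by point estimate in all 7 classes where it was tested, which share the same 6 libraries. Without normoxia library 3 the sign turned in oligodendrocytes (0.045) and astrocytes (0.078), and in astrocytes it also turned when a nucleus had to lead every other class by 20 percentage points of markers (0.0013). In excitatory neurons it had 154, 150 and 122 CPM in the CIH libraries, against 152, 183 and 215 CPM in the normoxia libraries, and the groups overlapped. The log2 fold change was -0.41 (SE 0.131, unadjusted p = 0.00867, edgeR adjusted p = 0.476), and -0.26 without normoxia library 3. In neurons without a transmitter call it had 178, 163 and 125 CPM in CIH, against 184, 179 and 253 CPM in normoxia, without overlap. There the log2 fold change was -0.44 (SE 0.159, adjusted p = 0.367), and -0.24 without normoxia library 3. The 9 astrocyte markers summed in this class to 229 to 288 CPM in CIH, against 126 to 137 CPM in normoxia, and the 7 granule neuron markers to 160 to 295 CPM in CIH, against 102 to 120 CPM in normoxia. P2ry14 averaged less in both of those classes than in these neurons, and their part in the result was not tested. In all nuclei it had 137, 129 and 93.6 CPM in CIH, against 132, 137 and 198 CPM in normoxia, the last again normoxia library 3, without which the log2 fold change was -0.17 in place of -0.39.

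In excitatory neurons P2ry14 (-0.41) and its neighbours P2ry12 and Gpr171 had similar log2 fold changes, while that of the host gene Med12l was smaller. Gpr171 was at -0.42 there on 154 UMIs (SE 0.334, edgeR adjusted p = 0.809). It was at -0.27 in inhibitory neurons and -0.76 in neurons without a transmitter call, also not called. P2ry12 had 48.0, 49.8 and 35.6 CPM in excitatory neurons of CIH libraries and 55.9, 58.1 and 64.5 CPM in those of normoxia libraries (log2 fold change -0.46, SE 0.135, edgeR adjusted p = 0.434). The 11 microglial markers summed there to 53.3 to 71.5 CPM in CIH, against 79.1 to 92.2 CPM in normoxia, and their part in the P2ry12 value was not tested. Med12l had 284, 264 and 241 CPM there in CIH and 252, 285 and 272 CPM in normoxia (log2 fold change -0.06, SE 0.091, adjusted p = 0.91). The ratio of P2ry14 to Med12l averaged 0.538 ± 0.031 in CIH and 0.679 ± 0.099 in normoxia excitatory neurons (SD, n = 3 each; exact permutation p = 0.1, two-sided). In all nuclei it averaged 0.578 ± 0.029 in CIH and 0.703 ± 0.134 in normoxia (n = 3 each, exact permutation p = 0.1), where 0.1 is the smallest p that 3 against 3 libraries can give. Among the other 8 tested classes, neurons without a transmitter call gave 0.1 as well and the rest 0.3 to 0.9, in exact permutation tests. The smallest Benjamini-Hochberg adjusted value over the 10 ratios compared was 0.333. These neighbours were chosen for their position and read after the P2ry14 values were seen.

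Adora1 was wholly higher in CIH in oligodendrocytes, in neurons without a transmitter call and in all nuclei. In all nuclei it had 34.5, 34.2 and 41.9 CPM in the CIH libraries, against 30.8, 30.7 and 23.8 CPM in the normoxia libraries (log2 fold change 0.37, SE 0.133, unadjusted p = 0.0263, edgeR adjusted p = 0.413). The mix of classes also differed there. Astrocyte markers summed to 343 to 660 CPM in CIH, against 194 to 242 CPM in normoxia. Granule neuron markers summed to 175 to 487 CPM, against 127 to 211 CPM, and oligodendrocyte markers to 4643 to 7076 CPM, against 4830 to 5587 CPM. The part of this mix in the all-nuclei value was not tested. In neurons without a transmitter call Adora1 had 29.3, 25.6 and 34.8 CPM in CIH, against 22.9, 24.0 and 21.2 CPM in normoxia (log2 fold change 0.41, SE 0.146, adjusted p = 0.362). In that class the astrocyte and granule neuron markers summed higher in CIH, as given for P2ry14, and Adora1 stood higher in both of those classes than in these neurons. Their part in the result was not tested. Without CIH library 3 the value was 0.24. In oligodendrocytes the log2 fold change was 0.31 (SE 0.143, adjusted p = 0.868), and 0.17 without normoxia library 3; the astrocyte markers there summed to 206 to 401 CPM in CIH, against 196 to 213 CPM in normoxia.

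Within the 9 classes P2rx7 gave the most extreme values, in opposite directions and on few counts. In inhibitory neurons it had 7.68, 4.31 and 6.42 CPM in the CIH libraries, against 3.03, 2.43 and 4.27 CPM in the normoxia libraries, on 159 UMIs in all (log2 fold change 0.87, SE 0.307, edgeR adjusted p = 0.651). The 11 microglial markers summed there to 55.7 to 89.1 CPM in CIH, against 60.2 to 97.3 CPM in normoxia, with every marker detected in every library, and the 10 oligodendrocyte markers to 523 to 918 CPM and 507 to 764 CPM. In oligodendrocyte precursors it had 76.9, 55.4 and 67.8 CPM in CIH, against 78.0, 151 and 130 CPM in normoxia, on 118 UMIs (log2 fold change -0.84, SE 0.325, adjusted p = 0.935). The microglial markers summed there to 78.2 to 86.1 CPM in CIH, against 102 to 208 CPM in normoxia, with up to 8 of 11 at 0 in a library, and their part in the result was not tested. In microglia themselves the log2 fold change was -0.10 (SE 0.151, adjusted p = 0.999).

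No enzyme or transporter gene passed the test. Entpd1 in microglia was wholly higher in CIH, at 850 ± 109 CPM, against 717 ± 53.7 CPM in normoxia (SD, n = 3 each), and its log2 fold change was 0.23 (SE 0.116, edgeR adjusted p = 0.999), or 0.13 without CIH library 2. In precursors it was wholly lower, at 17.1, 73.8 and 67.8 CPM in CIH, against 84.0, 86.1 and 76.9 CPM in normoxia (log2 fold change -0.46, SE 0.372), or -0.22 without CIH library 1. The microglial markers in precursors, given for P2rx7, were also lower in CIH, and their part in the result was not tested. Adk was wholly higher in neurons without a transmitter call, at 156, 143.8 and 153 CPM in CIH, against 126, 143.6 and 142 CPM in normoxia (log2 fold change 0.12, SE 0.085), or 0.059 without normoxia library 1. This is the class whose astrocyte markers summed higher in CIH, as given for P2ry14, and Adk was highest in astrocytes; the part of those markers was not tested. In precursors Adk was wholly lower (-0.33, SE 0.226), or -0.21 without normoxia library 2. In astrocytes, its main class, the Adk log2 fold change was 0.10 (SE 0.162, edgeR adjusted p = 0.978). Slc29a1 in excitatory neurons had 14.2, 14.3 and 6.94 CPM in CIH, against 6.49, 6.73 and 7.16 CPM in normoxia, on 175 UMIs; CIH libraries 1 and 2 were high and library 3 lay among the normoxia libraries (log2 fold change 0.74, SE 0.286, adjusted p = 0.554). Nt5e had log2 fold changes of -0.23 to 0.32 over the 5 classes where it was tested, each with overlapping groups, and P2rx4 -0.33 to 0.35 over 6 classes, also with overlap.

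Of the other purinergic genes, edgeR called 0 in any class and 0 of 38 in all nuclei. At an unadjusted p under 0.05 there were 15 of 130 gene and class pairs (7.49% over all genes) and 5 of the 38 genes in all nuclei (11% of all genes). DESeq2 called 0 pairs in the classes and 1 gene, Entpd3, in all nuclei. The 3 genes named next were chosen after their values were seen. The smallest p in all nuclei was that of Entpd3 (log2 fold change -0.46, SE 0.095, adjusted p = 0.285), and in microglia that of P2ry6 (-0.47, SE 0.147, adjusted p = 0.999). In oligodendrocytes it was that of P2ry12 (-0.79, SE 0.171, adjusted p = 0.482), a gene of microglia whose markers summed there to 105 to 125 CPM in CIH, against 176 to 202 CPM in normoxia; their part in the result was not tested.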

How the data were processed

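The authors deposited filtered matrices of raw UMI counts per gene and nucleus for 3 CIH and 3 normoxia libraries of sorted nuclei. The submitters' processing notes name Cell Ranger 3.1.0, Seurat 4.0 and mm10, while the file headers name Cell Ranger 6.1.2, and intron and strand settings are not given in the sources used here. The count of kept nuclei per library was 4350, 4447 and 10643 in CIH and 4698, 6615 and 9386 in normoxia, with median UMIs of 2349 to 3639 a nucleus, so a gene with few UMIs in a class has a wide counting error.

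Kept nuclei had 500 or more genes and no more than 5% of UMIs from mitochondrial genes. A nucleus joined a class when its detected class markers reached a minimum and their share led every other class by 10 percentage points. Between microglia and perivascular macrophages no lead was asked, and a nucleus with at least 3 macrophage markers was not called microglia. Neurons were divided by transmitter genes. Thresholds were set after marker counts were seen. The gate left 1943 nuclei that met a minimum without leading and 4625 that met none. No doublet caller was run; the lead removes nuclei with markers of several classes, and leaving out the top 5% of nuclei by UMIs was an alternative. The 10 members and the gene lists were chosen with earlier results of these data known. The genes named were all members, up to 4 called genes of smallest p per class from 43 other purinergic genes, and the 3 genes most like each member with at least 500 UMIs, among genes of mean CPM 10 or more, of which 1 is not reported here.

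UMI counts were summed per library and class and tested with edgeR 4.0.16 (TMM, filterByExpr, quasi-likelihood, Benjamini-Hochberg 0.05) in R 4.3.3, checked on simulated data; DESeq2 1.42.0 was an alternative. CIH was compared with normoxia in 1 fit per class without a replicate block. Thinned shares are expected shares of nuclei with a UMI at 1000 UMIs, over the nuclei that held at least 1000 UMIs. Unthinned shares cover all nuclei of a class. Limits for 0 UMIs use 3 counts. Sums and figures were made with matplotlib 3.10.9, scipy 1.17.1, pandas 2.3.3 and numpy 2.4.6 in Python 3.11.15. Other alternatives were RLE scaling, no filter on low counts, stricter nuclei (1000 genes, 1% mitochondrial UMIs), a stricter gate (20 points), normoxia libraries only for class differences, and leaving out each library.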

Additional observations from a re-analysis of the deposited data

Results flagged for a closer look

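For 3 genes, the CIH libraries were all above the normoxia libraries in one class and all below them in oligodendrocyte precursors, and the difference between classes was not tested. Among all genes tested, 4.57% were wholly lower in precursors. Wholly higher ones made up 7.37% in inhibitory neurons, 5.49% in microglia and 9.21% in neurons without a transmitter call. The share of genes with both patterns was not computed. P2rx7 had a log2 fold change of CIH over normoxia of 0.87 in inhibitory neurons and -0.84 in precursors. Entpd1 had 0.23 in microglia, or 0.13 without CIH library 2, and -0.46 in precursors, or -0.22 without CIH library 1. Adk had 0.12 in neurons without a transmitter call, or 0.059 without normoxia library 1, and -0.33 in precursors, or -0.21 without normoxia library 2. Precursors were the smallest class tested, with 33 to 188 nuclei per CIH library and 40 to 83 per normoxia library, and none of these 6 values had an adjusted p under 0.05 in edgeR. The microglial markers summed in precursors to 78.2 to 86.1 CPM in CIH, against 102 to 208 CPM in normoxia. The astrocyte markers in neurons without a transmitter call were higher in CIH, as given for P2ry14. The part of these markers in the 6 values was not tested.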

How the results depend on the processing

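The 52 class calls kept their direction under all alternatives, and 42 also stayed past the threshold under all of them. The count of class calls stayed within 1.5 times of 52. The other 10 calls lost the threshold at least once: Adk in excitatory neurons (8 alternatives), Nt5e in neurons without a transmitter call (6), P2rx4 in astrocytes and Adk in endothelial cells (without CIH library 3 and with normoxia libraries only), Nt5e in inhibitory neurons and Adora1 in oligodendrocyte precursors (stricter nuclei), and Adora1 and Nt5e in microglia and P2rx4 and Slc29a1 in neurons without a transmitter call (normoxia libraries only, 3 of the 6).

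Between CIH and normoxia, 786 of 817 alternative values for 64 results kept direction and call. With no filter on low counts, 1 member was called in a class instead of 0: P2ry14 in excitatory neurons (log2 fold change -0.42, edgeR adjusted p = 0.0164); the cause was not tested. Small fold changes turned sign. In all nuclei Nt5e (-0.00059) was 0.0052 with RLE, 0.0042 with DESeq2 and 0.043 without the top 5% of nuclei. The stricter gate gave 0.0013 for P2ry14 in astrocytes, 0.068 for Entpd1 in excitatory neurons, -0.16 for Nt5e in granule neurons and 0.044 for Slc29a1 in inhibitory neurons, the last being 0.020 without the top 5%. P2rx7 in microglia was 0.028 in stricter nuclei. Leaving out 1 library moved Adk (-0.040 to 0.087), Nt5e (-0.34 to 0.033) in excitatory neurons, Adora1 (-0.076 to 0.21) and Slc29a1 (-0.25 to 0.27) in inhibitory neurons, Entpd1 (-0.088 to 0.39), Nt5e (-0.069 to 0.084), P2rx4 (-0.27 to 0.012) and Slc29a1 (-0.10 to 0.37) in granule neurons, Nt5e (-0.079 to 0.057), P2rx4 (-0.030 to 0.094) and P2ry1 (-0.27 to 0.35) in all nuclei, P2rx7 in microglia (-0.19 to 0.032), and P2ry14 in astrocytes (-0.19 to 0.078) and oligodendrocytes (-0.38 to 0.045). The cause of these turns was not tested.

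With the replicate block, 0 members were called and P2ry14 in neurons without a transmitter call was at -0.43. The labels do not say that a number pairs libraries, and the correlations of same-numbered libraries in all nuclei were 0.041, 0.190 and 0.205. All 3 same-number correlations passed 0.1 in oligodendrocytes (0.172, 0.205 and 0.448), but libraries of different number reached 0.225 there (CIH 2 with normoxia 1). In that class CIH 3 gave -0.30 and -0.28 with normoxia 1 and 2, and normoxia 3 gave -0.26 and -0.33 with CIH 1 and 2. The libraries numbered 3 thus stood apart from those numbered 1 and 2 in both groups of that class, and the cause was not tested. The count of genes called between CIH and normoxia depended on the setting: in all nuclei it was 2, 225 with DESeq2, 0 with the replicate block and 517 without CIH library 3, and in neurons without a transmitter call 17, 154 with DESeq2 and 0 to 392 over the alternatives. In excitatory, granule and inhibitory neurons it was 0, 0 and 1, against 222, 225 and 137 with no filter, and in oligodendrocytes 0, against 39 with the replicate block. Class counts were lowest with normoxia libraries only, such as 4690 against 7425 in endothelial cells. The median of all genes was -0.22 in endothelial cells (-0.10 with RLE) and 0.07 in oligodendrocytes (-0.13 with RLE). Stricter nuclei gave no value for endothelial cells. The depth of the 418 precursors, 777 astrocytes and 814 endothelial cells limits their CIH comparisons, and Adora2a and P2ry1 could not be compared within classes.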

Other observations

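Classes too small to test showed further levels of the members. Fibroblasts (150 nuclei) held 14 Nt5e UMIs (38.9 CPM, 95% Poisson interval 21.3 to 65.3), 13 Slc29a1 UMIs (36.1 CPM, 19.2 to 61.8) and 9 P2ry1 UMIs (25.0 CPM, 11.4 to 47.5). Noradrenergic neurons (41 nuclei) held 33 P2rx4 UMIs (56.2 CPM, 38.7 to 79.0), and 0 of Entpd1, which allows up to 5.11 CPM. Serotonergic (91 nuclei) and cholinergic neurons (93 nuclei) held P2ry14 at 187 CPM (161 to 216) and 151 CPM (131 to 174). Intervals cover counting error only, and no class here was compared between CIH and normoxia.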
